A study of Mus musculus with 44 samples.

Results

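Neural immunoglobulin adhesion molecules are membrane proteins of the immunoglobulin superfamily that hold neighbouring cells or axons together. The 10 genes described here were chosen by name: *Ncam1*, *Ncam2*, *Alcam*, *L1cam*, *Chl1*, *Nrcam*, *Nfasc*, *Cntn1*, *Cntn2* and *Dscam*. They are 10 of the 32287 gene identifiers quantified in 44 low-input RNA-seq libraries of mouse embryos, and all 10 were found in every library. Of the 10 genes, 8 exceeded 1 TPM (a level scaled to transcript length and to the sum over the library) in at least 4 libraries. *Cntn1* did so in 2 libraries and *Ncam2* in none.

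The embryos were made by aggregating an mCherry+ morula with GFP+ mouse embryonic stem cells, so that GFP marks embryonic and mCherry marks extraembryonic descent. At E6.5, the epiblast (Epi), the distal extraembryonic endoderm (exEndo1) and the proximal extraembryonic endoderm (exEndo2) were dissected by hand from single embryos, with 4 libraries each. At E9.5, EPCAM+ cells were sorted from midgut and hindgut as extraembryonic mCherry+ cells (exMidgut, exHindgut) or as embryonic GFP+ cells with a low mCherry signal (emMidgut, emHindgut), and from the yolk sac as mCherry+ endoderm (YsEndo). Each E9.5 group has 4 libraries, each from a pool of 4 embryos. At E13.5, EPCAM+ cells were sorted from the small intestine and colon of single embryos as GFP+ wild-type cells (emSI, emColon) or mCherry+ cells (exSI, exColon), with 3 libraries each. Here the extraembryonic cells carried a Trp53 knockout made with Cas9 in the zygote, so origin and genotype changed together and cannot be told apart at E13.5. The stem cells came from a single-cell clone on the F1G4 background (G4 in the labels) carrying CAG-EGFP at Rosa26, whereas the morulae carried a piggyBac EF1a-mCherry transgene and a partly different strain background, so strain and origin also changed together at every stage. The gut libraries hold few sorted cells each, and no read counts were used here, so the depth behind a single TPM value is unknown.

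Cell adhesion molecules of this superfamily carry immunoglobulin domains outside the cell and are best known from neurite growth, axon bundling and myelination. *Ncam1* and *Ncam2* encode the neural cell adhesion molecules, and NCAM1 is the main carrier of polysialic acid. *L1cam*, *Chl1*, *Nrcam* and *Nfasc* form the L1 family, which is anchored to ankyrin inside the cell. *Cntn1* and *Cntn2* encode contactins, held at the membrane by a lipid anchor, *Alcam* encodes a ligand of CD6 that also binds itself, and *Dscam* encodes a receptor for neurite self-avoidance. Several of these proteins are also made outside the nervous system, ALCAM and NCAM1 among them.

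In mm10 the genes lie apart, apart from a single pair of neighbours. *Ncam1* spans chromosome 9, 49502136 to 49798925, and *Chl1* chromosome 6, 103510586 to 103750211. *Nrcam* lies on chromosome 12, 44328885 to 44601964, *Cntn1* on chromosome 15, 92051165 to 92341967, and *L1cam* on chromosome X, 73853778 to 73896105. *Ncam2* (81200697 to 81626828), *Alcam* (52248996 to 52454074) and *Dscam* (96590840 to 97170752) share chromosome 16. *Cntn2* (132509427 to 132543256) and *Nfasc* (132564690 to 132741797) follow each other on the minus strand of chromosome 1 with 21433 bases between them. These neighbours had different patterns: *Nfasc* was highest in Epi and *Cntn2* in emHindgut.

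The RefSeq promoter windows of 300 bases around the annotated start (GRCm38.p6) are shown for *Alcam*, *Chl1*, *Cntn2* and *Nfasc*, because these genes had clearly different group patterns. Each is printed 5′ to 3′ on the strand of the gene, with CG dinucleotides in capitals. The windows lie at chr16:52453032-52453331 (minus strand) for *Alcam*, chr6:103510626-103510925 (plus strand) for *Chl1*, chr1:132542891-132543190 (minus strand) for *Cntn2* and chr1:132707277-132707576 (minus strand) for *Nfasc*.
Alcam: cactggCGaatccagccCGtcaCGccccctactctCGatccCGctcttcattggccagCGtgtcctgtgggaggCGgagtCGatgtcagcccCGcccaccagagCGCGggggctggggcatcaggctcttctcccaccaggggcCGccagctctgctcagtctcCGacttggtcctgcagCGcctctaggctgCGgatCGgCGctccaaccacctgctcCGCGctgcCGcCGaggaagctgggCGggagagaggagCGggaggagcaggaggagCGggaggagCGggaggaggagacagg
Chl1: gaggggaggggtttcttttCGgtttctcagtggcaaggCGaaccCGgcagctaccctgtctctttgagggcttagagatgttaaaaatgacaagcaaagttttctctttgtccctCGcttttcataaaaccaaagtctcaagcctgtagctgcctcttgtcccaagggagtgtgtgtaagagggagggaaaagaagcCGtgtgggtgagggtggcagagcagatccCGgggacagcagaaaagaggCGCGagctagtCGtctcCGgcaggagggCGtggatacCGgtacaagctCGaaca
Cntn2: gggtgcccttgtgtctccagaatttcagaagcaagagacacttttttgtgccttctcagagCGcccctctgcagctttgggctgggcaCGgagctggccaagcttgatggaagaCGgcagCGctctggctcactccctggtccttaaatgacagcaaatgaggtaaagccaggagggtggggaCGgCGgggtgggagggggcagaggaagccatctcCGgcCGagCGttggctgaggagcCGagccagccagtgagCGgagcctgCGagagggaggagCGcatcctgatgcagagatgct
Nfasc: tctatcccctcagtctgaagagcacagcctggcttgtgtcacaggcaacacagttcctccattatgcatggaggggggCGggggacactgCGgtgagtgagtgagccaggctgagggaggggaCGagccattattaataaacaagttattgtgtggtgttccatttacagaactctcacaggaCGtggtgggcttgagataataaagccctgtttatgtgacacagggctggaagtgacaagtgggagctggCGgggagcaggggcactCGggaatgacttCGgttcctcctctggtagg

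Of the 10 genes, 9 had an entry in the promoter table, and *Ncam1* had none. The *Alcam* window holds 25 CG dinucleotides, and 18.4% of all 32851 windows hold at least as many. The *Chl1* and *Cntn2* windows hold 13 each, a number reached by 37.9% of all windows. The *Nfasc* window at this start holds 7, which is the median of all windows. The CG content of a window is a description, and no methylation value was used here.

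The labels were checked first. EGFP ran from 440 to 880 TPM in the embryonic gut libraries of both stages and from 180 to 532 TPM in Epi, against at most 15.9 TPM in any mCherry+ library. mCherry was at 1731 TPM or more in every extraembryonic library and was at most 6.61 TPM in the others. *Epcam* was at 331 TPM or more in every gut library. The Trp53 transcript was lower on average in the knockout groups but still present, at 33.4 to 167 TPM in the extraembryonic E13.5 libraries against 151 to 245 TPM in the embryonic ones. The germ cell gene *Dppa3* stood at 224 and 183 TPM in emMidgut replicates 1 and 3 and at 0 in replicates 2 and 4. The comparisons of origin and region among the E9.5 gut libraries were therefore also computed without those 2 libraries. The comparisons across stages that use emMidgut were not computed in this way.

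**Figure D1:**
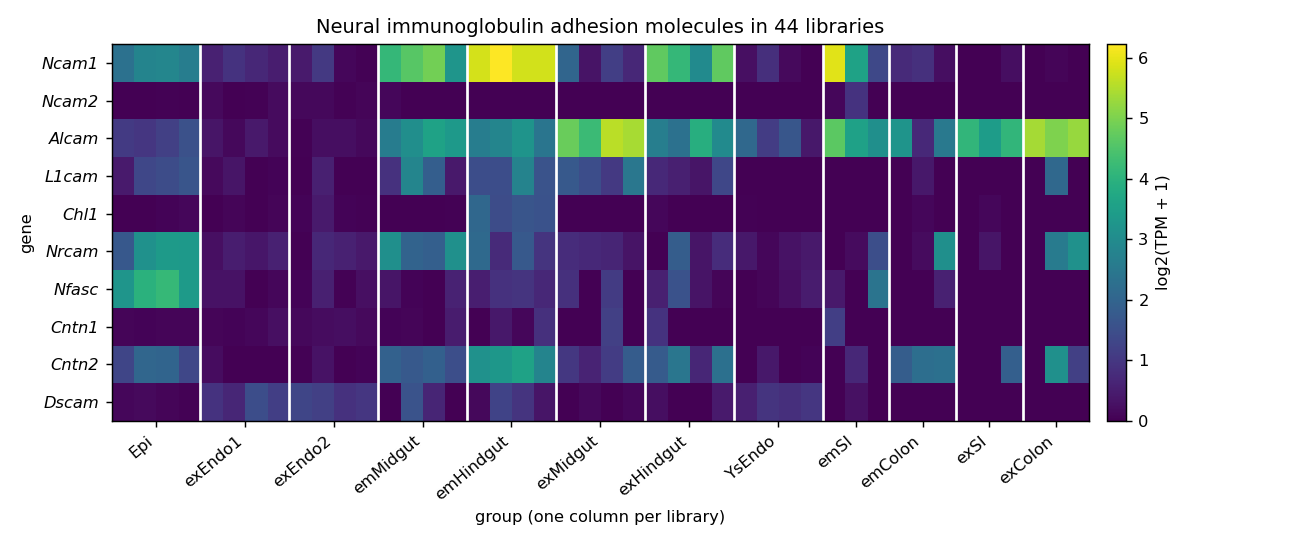
Level of each gene (rows) in each of the 44 libraries (columns, ordered by group, white lines between groups), as log2(TPM + 1) on the colour scale. *Ncam1* is brightest in emHindgut, *Alcam* in exMidgut and exColon, *Nfasc* in Epi, and *Ncam2* and *Cntn1* are dark nearly everywhere.

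Across the 120 combinations of gene and group, the mean exceeded 1 TPM in 38, and every library was at 0 in 22. The genes did not share a pattern over the 12 groups. *Ncam1* had its highest mean in emHindgut, followed by emSI, emMidgut and exHindgut, and the ranges of each neighbouring pair in that order overlapped. *Alcam* had its highest means in exColon (36.6 TPM) and exMidgut (33.3 TPM), whose ranges overlapped, and its lowest in exEndo1 and exEndo2. *Nfasc* in Epi, *Chl1* in emHindgut and *Cntn2* in emHindgut each stood above the group with the next highest mean with no overlap of libraries, although exColon replicate 2 reached 7.74 TPM of *Cntn2*, within the range of emHindgut. The pairwise Pearson r of the 8 genes above the filter, over the 12 group means of log2(TPM + 1), ran from -0.73 for *Alcam* and *Dscam* to 0.71 for *L1cam* and *Cntn2*. These group means come from the same libraries for every gene.

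The E9.5 gut answers whether cells of different origin in the same tissue express these genes alike. *Ncam1* was lower in cells of extraembryonic origin in both regions, *Nrcam* was lower in exMidgut, *Chl1* was lower in exHindgut, and *Alcam* was higher in exMidgut. Differences were tested with limma on log2(TPM + 1), two-sided, over 13473 genes, and a gene was called at a Benjamini-Hochberg adjusted p under 0.05 with an absolute log2 difference above 1. In a bulk library, fewer cells that express a gene and less RNA per cell cannot be told apart.

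*Ncam1* stood at 16.8, 23.6, 28.8 and 8.46 TPM in the 4 emMidgut libraries and at 3.06, 0.245, 1.23 and 0.607 TPM in exMidgut. In the hindgut it stood at 56.2, 73.9, 54.8 and 54.4 TPM in emHindgut and at 25.0, 16.6, 6.95 and 25.0 TPM in exHindgut. The libraries of the 2 origins did not overlap in either region, and the hindgut was above the midgut within each origin. *Ncam1* was 3.18 lower in exMidgut than in emMidgut on the log2 scale (log2 difference -3.18, SE 0.42, adjusted p = 6.1e-05) and 1.78 lower in exHindgut than in emHindgut (log2 difference -1.78, SE 0.42, adjusted p = 0.0168). The deposited read coverage of *Ncam1*, relative to its FPKM, was low in the 28 libraries with enough signal, with a median ratio of 0.033 of that of the typical gene. For all genes the 5th and 95th percentiles of that ratio were 0.168 and 1.74, so the level of *Ncam1* is uncertain. The median ratio was also low for *Nrcam* (0.0903), *Cntn1* (0.101) and *Chl1* (0.174), whose levels share that limit. With library-scaled coverage in place of TPM the differences were -2.30 (adjusted p = 0.0085) in the midgut and -1.69 (adjusted p = 0.0557) in the hindgut. The hindgut call on TPM was lost without emHindgut replicate 2 (-1.68, adjusted p = 0.0610) or without exHindgut replicate 3 (-1.40, adjusted p = 0.0670). It was also lost with a pseudocount of 0.1 (-1.85, adjusted p = 0.0774) and with no filter on low values (-1.78, adjusted p = 0.0571).

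*Alcam* ran the other way in the midgut. It stood at 27.1, 18.05, 46.5 and 41.4 TPM in exMidgut and at 5.16, 7.40, 11.1 and 9.41 TPM in emMidgut, with no overlap, and was called higher (log2 difference 1.84, SE 0.37, adjusted p = 0.0042). In exHindgut it stood at 5.31, 4.04, 13.9 and 6.93 TPM, which overlapped the 4.40 to 8.34 TPM of emHindgut (log2 difference 0.19, 95% confidence interval -0.58 to 0.96, adjusted p = 0.88).

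In the L1 family, *Nrcam* was called lower in exMidgut and *Chl1* in exHindgut, and none of the family was called in the interaction of origin and region. *Nrcam*, which takes part in axon guidance and in the clustering of channels at nodes of Ranvier, stood at 7.62, 2.92, 2.696 and 7.75 TPM in emMidgut and at 0.731, 0.636, 0.554 and 0.246 TPM in exMidgut (log2 difference -1.91, SE 0.46, adjusted p = 0.0163). The libraries did not overlap, but the call was lost without emMidgut replicate 1 (-1.71, adjusted p = 0.0576), without emMidgut replicate 4 (-1.71, adjusted p = 0.0586) or without both libraries that hold *Dppa3* (-1.94, adjusted p = 0.0774). It was also lost with a pseudocount of 0.1 (-2.96, adjusted p = 0.0585) and with coverage in place of TPM (-1.83, adjusted p = 0.0799). In the hindgut *Nrcam* ran from 0.670 to 3.40 TPM in emHindgut and from 0 to 2.57 TPM in exHindgut, with overlap (log2 difference -0.64, SE 0.46, adjusted p = 0.561). *Chl1*, the close homologue of L1, stood at 3.23, 1.74, 2.10 and 1.98 TPM in emHindgut and at 0.0754, 0, 0 and 0 TPM in exHindgut (log2 difference -1.66, SE 0.33, adjusted p = 0.0047). No library outside emHindgut exceeded 0.36 TPM of *Chl1*, so it passed the filter on low values only through emHindgut, and its log2 difference between exMidgut and emMidgut was -0.01 (95% confidence interval -0.69 to 0.67). With coverage in place of TPM the hindgut difference of *Chl1* was -2.17 (adjusted p = 0.0103). *L1cam*, the founding member, had overlapping libraries at 0.842, 6.16, 2.64 and 0.353 TPM in emMidgut and 2.31, 1.78, 1.04 and 4.53 TPM in exMidgut. In the hindgut, *L1cam* lay at 1.77 to 5.91 TPM in emHindgut and 0.275 to 1.51 TPM in exHindgut, and it was not called (log2 difference -1.09, 95% confidence interval -2.13 to -0.05, adjusted p = 0.281).

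*Cntn2*, which encodes a contactin of early axons, stood at 7.95, 8.80, 11.1 and 5.99 TPM in emHindgut and at 2.44, 4.43, 0.580 and 3.92 TPM in exHindgut. The groups did not overlap, and the difference of -1.42 (SE 0.41) just missed the threshold (adjusted p = 0.0548). It was called without exHindgut replicate 2 (-1.63, adjusted p = 0.0452) or without exMidgut replicate 4 (-1.42, adjusted p = 0.0474). In the midgut *Cntn2* ran from 1.80 to 2.83 TPM in emMidgut and from 0.533 to 2.48 TPM in exMidgut, with overlap.

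**Figure D2:**
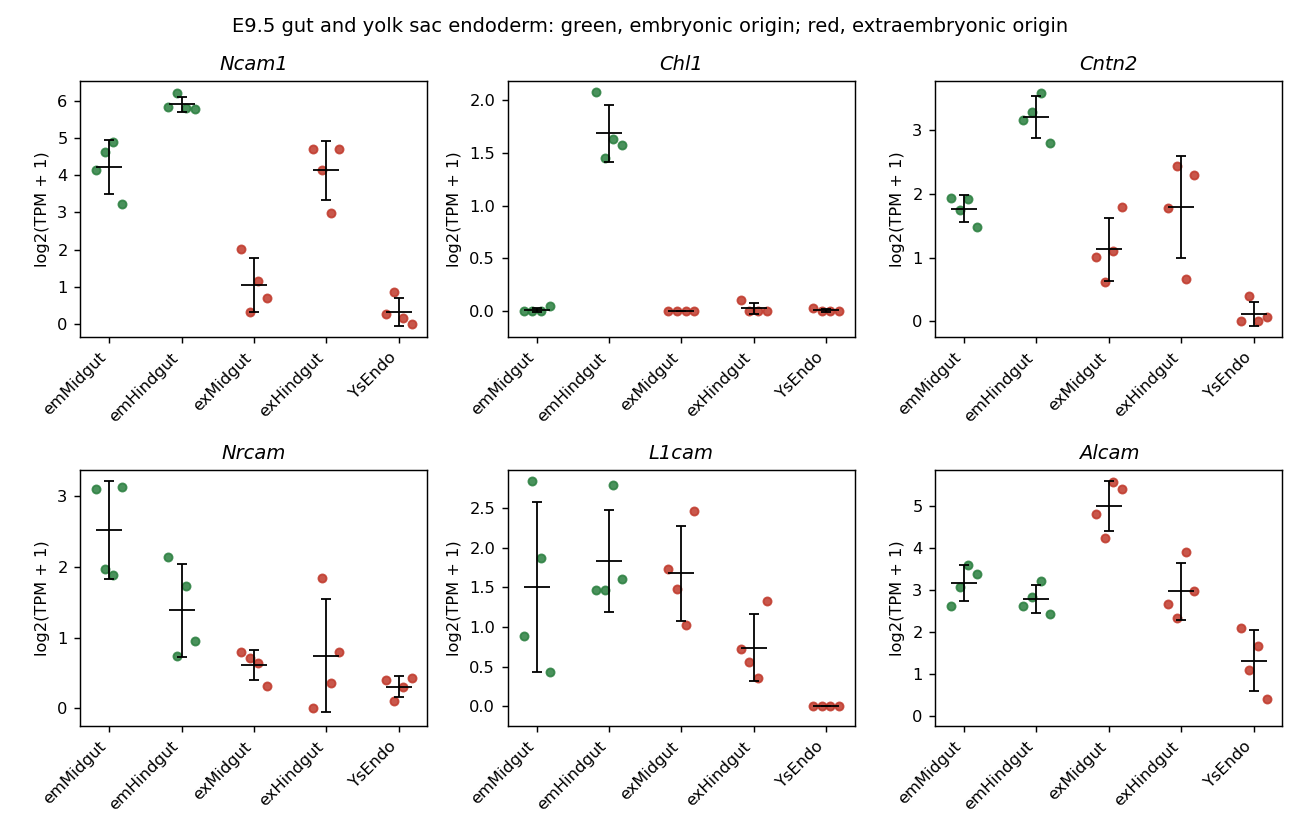
Levels of 6 genes at E9.5 as log2(TPM + 1), with 1 point per library (n = 4 per group), the horizontal bar at the mean and whiskers of 1 SD. Embryonic groups are green and extraembryonic groups red. *Chl1* is above 1 on this scale only in emHindgut, and *Alcam* is highest in exMidgut.

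In counts, 3 of the 6 tested genes were called between exMidgut and emMidgut (1 higher, 2 lower), against 3.87% of all genes tested (1.67% higher, 2.2% lower). Between exHindgut and emHindgut 2 of 6 were called, both lower, against 2.64% of all genes called and 1.32% called lower. *Chl1*, among them, passed the filter on low values only through emHindgut, so it could be called in that direction alone. The median log2 difference of the 6 genes was -0.33 in the midgut and -1.26 in the hindgut, and that of all genes tested was -0.03 and -0.02. With both regions pooled and no term for region, only *Ncam1* of the 6 was called (log2 difference -2.48, SE 0.65, adjusted p = 0.0387), against 2.35% of all genes called and 1.27% called lower. That call was lost when any of 11 of the 16 libraries was left out: each of the 4 emHindgut libraries, each of the 4 exMidgut libraries, emMidgut replicates 2 and 3, and exHindgut replicate 3. The values without them ran from -2.55 to -2.16, with adjusted p from 0.0518 to 0.0775. With region as a covariate 4 of the 6 genes were called, against 587 of all 13473 genes tested. They were *Ncam1*, *Nrcam* (-1.28, adjusted p = 0.0227), *Cntn2* (-1.03, adjusted p = 0.0291) and *Alcam* (1.02, adjusted p = 0.0404). The replicate block, which joined libraries of the same region and number, called 2, *Ncam1* and *Nrcam*, against 490 of all 13473 genes tested.

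Whether the effect of origin differed between regions was tested by an interaction in limma. None of the 6 genes was called, against 0.0965% of all genes, although 3 had an unadjusted p under 0.05. These were *Chl1* (interaction -1.65, adjusted p = 0.244), *Alcam* (-1.65, adjusted p = 0.346) and *Ncam1* (1.40, adjusted p = 0.559). With no filter on low values the *Chl1* interaction had the same value (-1.65) and an adjusted p of 0.000245. With coverage in place of TPM it was not called (-2.14, adjusted p = 0.335), and a pseudocount of 0.1 called 0 members. *Chl1* passed the filter on low values only through emHindgut.

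**Figure D3:**
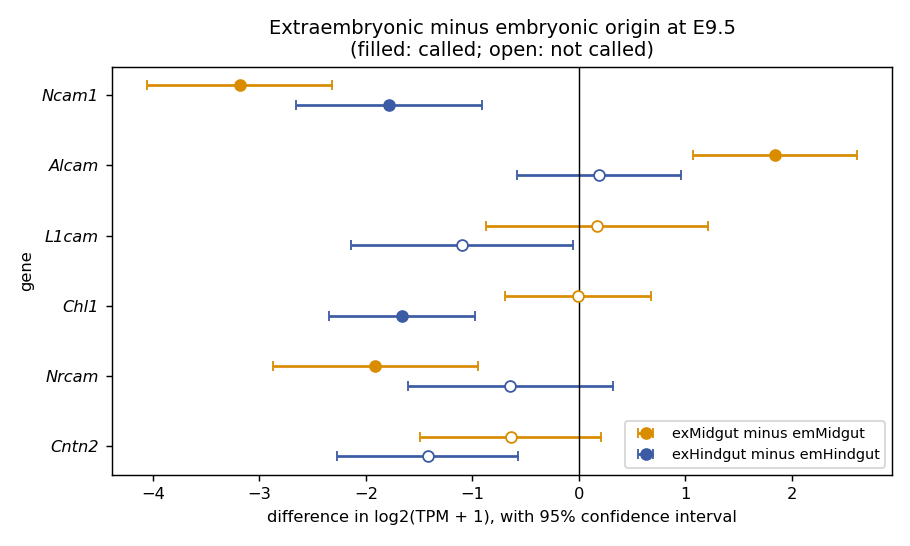
Difference between extraembryonic and embryonic origin at E9.5 in log2(TPM + 1) for the 6 tested genes, in midgut (orange) and hindgut (blue), with 95% confidence intervals from limma. Filled points were called and open points were not. *Ncam1* lies left of 0 in both regions and *Alcam* right of 0 in the midgut.

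Between regions of the same origin, *Ncam1*, *Chl1* and *Cntn2* were higher in emHindgut than in emMidgut, 3 of the 6 tested, against 12.8% of all genes called and 4.91% called higher. The log2 differences were 1.69 (SE 0.42, adjusted p = 0.0058) for *Ncam1*, 1.68 (SE 0.33, adjusted p = 0.00079) for *Chl1* and 1.44 (SE 0.41, adjusted p = 0.0144) for *Cntn2*. The *Cntn2* call was lost with a pseudocount of 0.1 (1.74, adjusted p = 0.0518) and with coverage (1.68, adjusted p = 0.0541). *Chl1* passed the filter on low values only through emHindgut, so only a higher call in emHindgut was open to it. In the extraembryonic cells 2 of 6 were called, against 12.2% of all genes called, 4.95% higher and 7.3% lower. *Ncam1* was again higher in the hindgut (3.09, SE 0.42, adjusted p = 1.5e-05), and *Alcam* was lower there (-2.04, SE 0.37, adjusted p = 0.0004). These comparisons use the same libraries as the comparisons of origin. Of the other adhesion genes of the superfamily, 1 was higher and 8 were lower in emHindgut than in emMidgut, and of the partners 4 were higher and 3 lower.

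Markers of neural and mesenchymal cells moved with some of these results. The 8 neuron markers summed to 27.0 to 68.0 TPM in emMidgut and 5.45 to 12.2 TPM in exMidgut, and to 8.01 to 22.2 TPM in emHindgut and 4.93 to 10.1 TPM in exHindgut. The pan-neuronal *Tubb3* was at 0 in 2 of the 4 emMidgut libraries, in 3 of the 4 emHindgut libraries and in all 4 exMidgut libraries. *Stmn2* ran from 10.3 to 53.5 TPM in emMidgut and was at 0 in 3 of the 4 exMidgut libraries, and it was called lower in exMidgut (log2 difference -3.86, adjusted p = 7.5e-05). The 6 neural progenitor markers summed to 24.7 to 36.4 TPM in emHindgut and 3.48 to 37.0 TPM in exHindgut, where *Hes5* alone stood at 30.8 TPM in replicate 4. *Nes*, which encodes the progenitor filament nestin, did not overlap between origins. It ran from 13.6 to 18.8 TPM in emHindgut and from 2.05 to 3.36 TPM in exHindgut (log2 difference -2.21, adjusted p = 0.0012). It ran from 2.25 to 6.98 TPM in emMidgut and from 0.133 to 1.96 TPM in exMidgut (log2 difference -1.44, adjusted p = 0.0258). The 6 mesenchyme markers summed to 31.7 to 55.5 TPM in emHindgut, 21.1 to 32.1 TPM in exHindgut, 7.57 to 18.2 TPM in emMidgut and 4.97 to 19.6 TPM in exMidgut. The sums of the 7 neural crest and enteric markers overlapped between origins, and *Sox10* was at 0 in all 16 gut libraries. Of these markers 4 were tested. In the midgut limma called 1 lower in exMidgut, against 2.2% of all genes, with 3 at an unadjusted p under 0.05. In the hindgut it called 0, with 1 at an unadjusted p under 0.05. The part of these cells in the results was not tested.

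The wider family and the partners were counted in the same fits, with no test between lists. Of 40 other adhesion genes of the superfamily, 27 were tested between exGut and emGut and 2 were called, both lower in exGut. They were *Cadm3*, a nectin-like molecule of neurons (log2 difference -1.79, SE 0.32, adjusted p = 0.0021), and *Vcam1*, a ligand of integrin alpha 4 beta 1 (-1.60, SE 0.43, adjusted p = 0.0457). Both passed the filter on low values only through emGut, so only a lower call in exGut was open to them. *Cadm3* stood at 2.02 to 7.12 TPM in emMidgut and at no more than 0.413 TPM in exMidgut. *Vcam1* stood at 3.45 to 8.53 TPM in emHindgut and at no more than 0.311 TPM in exHindgut. Of 30 binding partners, modifiers and intracellular anchors, 22 were tested and limma called none, with 4 at an unadjusted p under 0.05. Within the midgut alone *St8sia2*, a polysialyltransferase that modifies NCAM1, was lower in exMidgut (-2.17, SE 0.52, adjusted p = 0.0146), at 9.90, 20.6, 11.9 and 22.9 TPM in emMidgut and 6.67, 0.560, 2.08 and 3.78 TPM in exMidgut. Within the hindgut alone *Ank2*, an ankyrin that binds L1 family members, was higher in exHindgut (1.38, SE 0.33, adjusted p = 0.018).

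The gut cells of extraembryonic origin were compared with YsEndo, endoderm of the same descent that stays in the yolk sac. All 4 genes tested were higher in exGut, against 42.4% of all genes called and 32.3% called higher. *Ncam1*, *L1cam* and *Cntn2* passed the filter on low values only through exGut, so their count in this direction is set in part by the filter. Their log2 differences were 2.27 for *Ncam1* (SE 0.80, adjusted p = 0.0242), 1.21 for *L1cam* (SE 0.37, adjusted p = 0.0115), 1.35 for *Cntn2* (SE 0.38, adjusted p = 0.0069) and 2.67 for *Alcam* (SE 0.60, adjusted p = 0.0014). In YsEndo *Ncam1* stood at 0.196, 0.796, 0.119 and 0 TPM, *L1cam* was listed at 0 in all 4 libraries, *Cntn2* was at most 0.312 TPM, and *Alcam* stood at 3.29, 1.15, 2.15 and 0.320 TPM. The *Ncam1* values overlapped those of exMidgut and lay below all of exHindgut. The median of all genes was itself 0.59 higher in exGut, which median-ratio rescaling lowered by 0.53, and all 4 calls were made with that scaling too. With FPKM the differences of *L1cam* (0.77) and *Cntn2* (0.89) fell under the fold threshold, and with no filter *Ncam1* lost its call (adjusted p = 0.0549). The *Ncam1* call was lost without YsEndo replicate 1 (2.25, adjusted p = 0.0547), replicate 3 (2.22, adjusted p = 0.0564) or replicate 4 (2.17, adjusted p = 0.0623). *Dscam* was not tested here. It stood at 0.466, 0.925, 0.794 and 0.978 TPM in YsEndo and at no more than 0.356 TPM in the 8 exGut libraries, so the 2 groups did not overlap. Of the other adhesion genes of the superfamily, 12 of 22 tested were higher and 2 lower in exGut, and of the partners 9 of 19 were higher and 0 lower.

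At E6.5 the epiblast was compared with the extraembryonic endoderm next to it. Of 5 genes tested, 4 were lower in exEndo1 than in Epi, against 33.1% of all genes called and 13.2% called lower. *Nfasc*, *Nrcam* and *Cntn2* passed the filter only through Epi, and *Ncam1* through Epi and a single exEndo2 library, so the count in this direction is set in part by the filter. *Nfasc*, which encodes the neurofascins of the axon initial segment and node, stood at 8.49, 14.7, 16.9 and 9.47 TPM in Epi and at 0.232, 0.232, 0 and 0.0850 TPM in exEndo1 (log2 difference -3.51, SE 0.21, adjusted p = 3.5e-09). *Nrcam* stood at 2.26, 7.92, 9.54 and 9.35 TPM in Epi and at 0.190 to 0.486 TPM in exEndo1 (-2.48, SE 0.31, adjusted p = 6.6e-06). Epi replicate 1 was the lowest of its group for both genes, and neither gene's groups overlapped.

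*Ncam1* stood at 3.98, 5.96, 6.28 and 5.19 TPM in Epi and at 0.497, 0.888, 0.628 and 0.412 TPM in exEndo1 (log2 difference -1.98, SE 0.22, adjusted p = 2.0e-06). With coverage in place of TPM the *Ncam1* difference was -0.97 (adjusted p = 0.00092), under the fold threshold. *Cntn2* stood at 1.46 to 3.16 TPM in Epi and at no more than 0.154 TPM in exEndo1 (-1.62, SE 0.19, adjusted p = 3.8e-06). *Dscam* ran the other way, but it passed the filter on low values only through exEndo1 and exEndo2, so only a higher call in exEndo1 was open to it. It stood at 0.0809, 0.112, 0.0597 and 0.0322 TPM in Epi, at 0.882, 0.598, 1.79 and 1.22 TPM in exEndo1 and at 1.48, 1.27, 0.865 and 0.975 TPM in exEndo2. Every extraembryonic library lay above every Epi library, and the difference of 0.96 between exEndo1 and Epi had an adjusted p of 0.00031 (SE 0.18) but stayed under the fold threshold. Without exEndo1 replicate 1 (1.00, adjusted p = 0.00056) or replicate 2 (1.08, adjusted p = 0.00016) it was called, and with a pseudocount of 0.1 the difference was 2.76. *Alcam* was above 1 TPM in too few E6.5 libraries to be tested, at 0.967 to 1.94 TPM in Epi and 0.101 to 0.344 TPM in exEndo1.

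**Figure D4:**
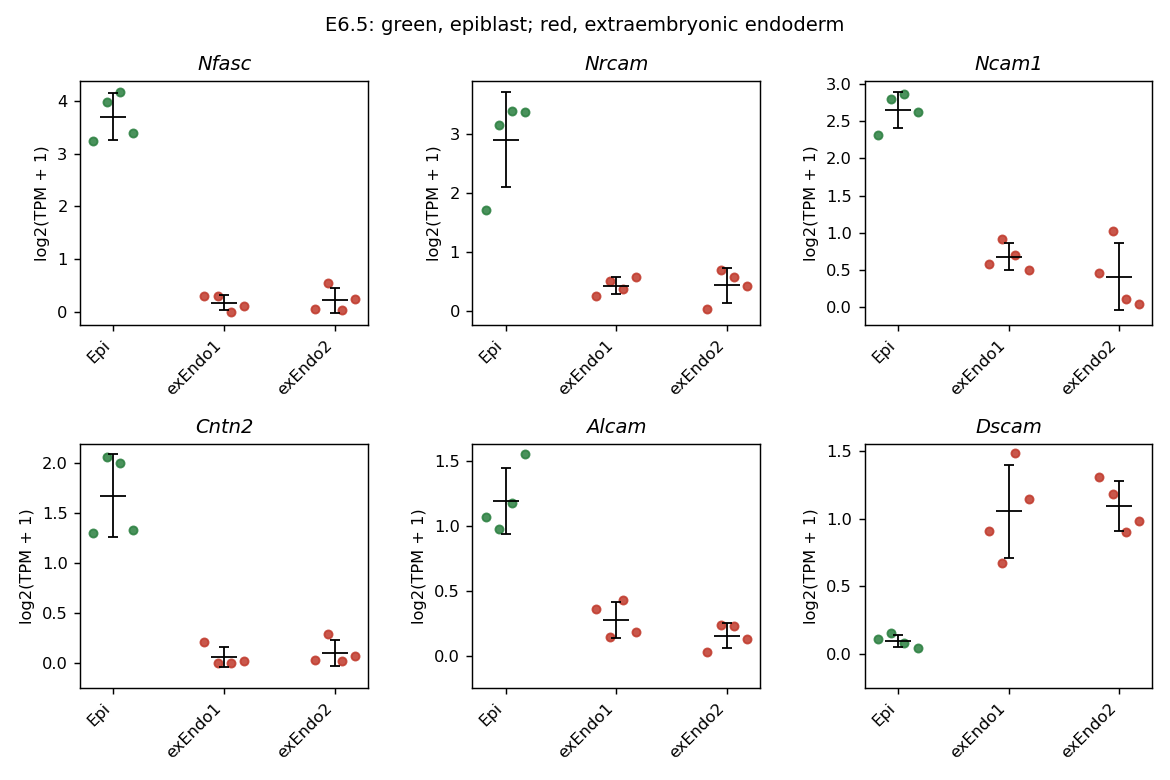
Levels of 6 genes at E6.5 as log2(TPM + 1) in Epi (green), exEndo1 and exEndo2 (red), with 1 point per library (n = 4 per group), the horizontal bar at the mean and whiskers of 1 SD. *Nfasc*, *Nrcam*, *Ncam1*, *Cntn2* and *Alcam* are highest in Epi, and *Dscam* is lowest there.

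The 8 neuron markers summed to 63.6 to 77.2 TPM in Epi and 2.86 to 5.04 TPM in exEndo1, and 6 of the 7 tested were lower in exEndo1. The mean of 7 of the 8 exceeded 1 TPM in Epi, against 1 in exEndo1 and 0 in exEndo2, so this count is set in part by the filter. The 5 epiblast markers summed to at least 2547 TPM in Epi and to at most 524 TPM in exEndo1. Of the other adhesion genes of the superfamily, 18 of 40 were tested, of which 4 were higher in exEndo1 (*Nptn*, *Icam1*, *Pvr* and *Kirrel*) and 7 lower (*Jam3*, *Thy1*, *Nectin1*, *Cadm1*, *Igdcc4*, *Igsf9b* and *Igsf9*). *Icam1*, a ligand of leukocyte integrins, was 3.42 higher, and *Cadm1*, an epithelial and synaptic adhesion molecule, had a log2 difference of -2.98. Of the partners, 19 of 30 were tested. In exEndo1, 8 were higher (*Sptbn1*, *Ntn1*, *Nrp1*, *Agrn*, *Ezr*, *Adam17*, *Adam10* and *Ptprz1*) and 5 lower (*Ncan*, *Fyn*, *St8sia2*, *Fgfr1* and *Gap43*). *Nrp1*, a semaphorin co-receptor that binds L1, was 3.68 higher, and the growth cone gene *Gap43* had a log2 difference of -3.46. The median log2 difference was -1.98 for the 5 genes of interest that were tested, -0.54 for the other superfamily genes, 0.47 for the partners and 0.11 for all genes tested. Because *Nfasc*, *Nrcam* and *Cntn2* passed the filter only through Epi, the median of the 5 genes is also set in part by the filter.

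Between exEndo1 and exEndo2 none of the 5 tested genes was called by limma and none had an unadjusted p under 0.05, against 6.32% of all genes called. The 95% confidence intervals were -0.20 to 0.74 for *Ncam1*, -0.67 to 0.66 for *Nrcam*, -0.50 to 0.42 for *Nfasc*, -0.46 to 0.36 for *Cntn2* and -0.42 to 0.35 for *Dscam*.

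At E13.5 the extraembryonic cells with a Trp53 knockout were set beside wild-type embryonic cells of the same organs. Of the 4 genes tested, limma called none, against 0.625% of all genes, and *Ncam1* and *Alcam* had an unadjusted p under 0.05. *Ncam1* stood at 60.7, 11.04 and 1.57 TPM in emSI and at 0, 0 and 0.169 TPM in exSI. In the colon it stood at 0.681, 0.806 and 0.177 TPM in emColon and at 0, 0.0560 and 0 TPM in exColon. The embryonic libraries lay above the extraembryonic ones in both organs (log2 difference -2.07 over both, SE 0.72, adjusted p = 0.26), but those of emSI were widely spread. In the fits of E13.5 libraries alone, *Ncam1* passed the filter on low values only through emSI. Its results for origin, organ and their interaction at this stage are therefore set in part by the filter.

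Mesenchyme markers had the same order over the emSI libraries. Their 6 genes summed to 384, 96.7 and 1.75 TPM in emSI replicates 1, 2 and 3, and *Col3a1* stood at 203, 43.9 and 0 TPM. In the other E13.5 libraries this sum ran from 0 to 11.7 TPM. The 6 enteroendocrine markers summed to 16.1, 235 and 241 TPM in the same emSI libraries and to at most 1.37 TPM in the others of that stage. The part of these cells in the *Ncam1* values was not tested.

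*Alcam* stood at 40.6, 31.8 and 37.4 TPM in exColon and at 8.28, 0.654 and 4.75 TPM in emColon, with no overlap. In the small intestine it stood at 16.0, 9.82 and 16.0 TPM in exSI and at 24.1, 10.8 and 7.64 TPM in emSI, with overlap. Over both organs the log2 difference was 1.58 (SE 0.59, 95% confidence interval 0.33 to 2.84, adjusted p = 0.307). The interaction of origin and organ called none of the 4 genes in limma, against 0.016% of all genes, with *Alcam* (2.97, adjusted p = 0.446) and *Ncam1* (2.97, adjusted p = 0.551) under 0.05 unadjusted.

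*Nrcam* and *Cntn2* were uneven between replicates at E13.5. *Nrcam* stood at 0, 5.01 and 7.93 TPM in exColon and at 0, 0.129 and 7.59 TPM in emColon, so the groups overlapped. *Cntn2* stood at 2.56, 3.72 and 3.96 TPM in emColon, at 0, 7.74 and 1.27 TPM in exColon, and at 0, 0.625 and 0 TPM in emSI. Of the other adhesion genes and the partners, 24 and 18 were tested between origins at E13.5, and limma called none, with 2 of each at an unadjusted p under 0.05. Between colon and small intestine limma called none of the 4 genes, against 1.3% of all genes, with *Ncam1* (-1.53, adjusted p = 0.415) and *Cntn2* (1.35, adjusted p = 0.377) under 0.05 unadjusted. *Nfasc* reached 4.28 TPM in emSI replicate 3 and was at 0 in all 6 extraembryonic libraries.

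**Figure D5:**
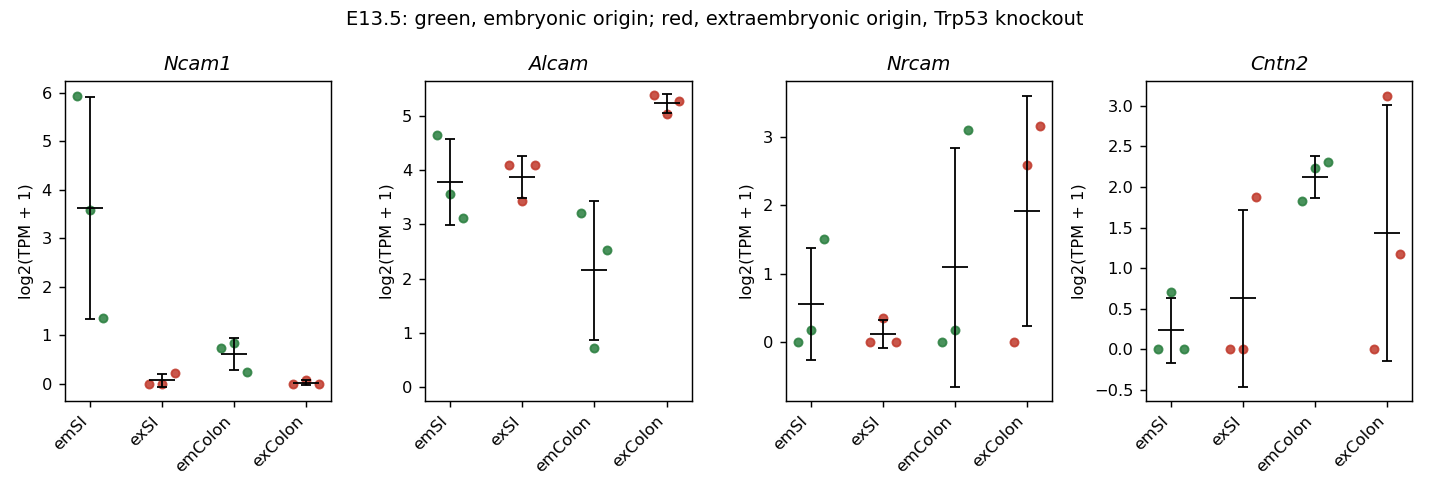
Levels of 4 genes at E13.5 as log2(TPM + 1), in embryonic wild-type (green) and extraembryonic Trp53-knockout cells (red) of small intestine and colon, with 1 point per library (n = 3 per group), the horizontal bar at the mean and whiskers of 1 SD. The emSI libraries of *Ncam1* are spread from 1.57 to 60.7 TPM, and *Alcam* is highest in exColon.

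Comparisons across stages also differ in dissection, pooling and, for the extraembryonic cells at E13.5, Trp53 genotype, and these cannot be told apart from stage. From Epi to emGut, *Ncam1* (log2 difference 2.42, SE 0.46, adjusted p = 0.00057) and *Alcam* (1.78, SE 0.27, adjusted p = 8.4e-05) were higher and *Nfasc* was lower (-3.19, SE 0.28, adjusted p = 5.6e-07). That is 3 of 7 tested, against 29.7% of all genes called, 22.4% higher and 7.31% lower. *Nfasc* passed the filter on low values only through Epi and *Chl1* only through emHindgut, so this count is set in part by the filter. From exEndo1 to exGut, *Alcam* (3.71, SE 0.57, adjusted p = 9.3e-05), *Cntn2* (1.41, SE 0.38, adjusted p = 0.0073) and *L1cam* (1.06, SE 0.38, adjusted p = 0.0307) were higher, 3 of 4 tested against 30.3% of all genes called and 18.8% called higher. All 4 genes tested passed the filter only through exGut, so a lower call was not possible. The *L1cam* call was lost when any of 6 of the 12 libraries was left out, the 4 exEndo1 libraries and exMidgut replicates 1 and 4, with values from 0.88 to 1.14 and adjusted p from 0.0370 to 0.0776. *Ncam1* missed the threshold (1.91, SE 0.80, adjusted p = 0.0606) and was called without exMidgut replicate 2, 3 or 4 (2.12 to 2.24, adjusted p 0.0227 to 0.0416). The emGut comparison shifted by -0.29 and the exGut comparison by -0.13 in the median of all genes under median-ratio rescaling.

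From E9.5 to E13.5, 3 of 6 genes were lower in the embryonic cells, against 21.7% of all genes called and 18.4% called lower. They were *Ncam1* (log2 difference -2.95, SE 0.47, adjusted p = 2.8e-05), *L1cam* (-1.60, SE 0.37, adjusted p = 0.0016) and *Cntn2* (-1.31, SE 0.41, adjusted p = 0.0143). *Chl1* had a difference of -0.83 (SE 0.18, adjusted p = 0.0009), under the fold threshold. *Chl1* passed the filter on low values only through emHindgut, and *L1cam* through E9.5 libraries and a single exColon library. The counts of lower genes between these stages are therefore set in part by the filter. *Nrcam* was not called (-1.13, SE 0.48, adjusted p = 0.0692), but it was called without emColon replicate 3 (-1.63, adjusted p = 0.0060), emSI replicate 3 (-1.37, adjusted p = 0.0427) or exColon replicate 1 (-1.13, adjusted p = 0.0393). In the extraembryonic cells 1 of 6 was lower, *Ncam1* (-2.54, SE 0.47, adjusted p = 0.00021), against 17% of all genes called and 13% called lower. *L1cam* was called as well without exColon replicate 2 (-1.21, adjusted p = 0.0143). *Alcam* had intervals of -0.74 to 0.72 in the embryonic and -0.17 to 1.29 in the extraembryonic cells. The median of all genes was -0.44 in the embryonic and -0.28 in the extraembryonic comparison, and rescaling moved these by 0.23 and 0.13. The change in the effect of origin between the stages was called for none of the 6 genes in limma, against 0.705% of all genes, with *Chl1* (0.83, adjusted p = 0.139) and *Nrcam* (1.47, adjusted p = 0.365) under 0.05 unadjusted.

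For 7 of the members, the genes with the most similar group pattern were taken as the 2 with the highest Pearson r over the 12 group means of log2(TPM + 1), among 14687 protein-coding genes. For *Ncam1* these were *Mmp2* (r = 0.98) and *Gli1* (r = 0.96), and for *Chl1* they were *Hoxb1* (r = 0.99) and *Gm14226* (r = 0.97). *Nfasc* was closest to *Cacng7* (r = 0.99) and *Slc35d3* (r = 0.98), *Nrcam* to *Ugt8a* (r = 0.92) and *Kcnh8* (r = 0.91), and *L1cam* to *Panx2* (r = 0.94) and *Ro60* (r = 0.93). *Cntn2* was closest to *Pycr1* and *Sfn* (both r = 0.92), and *Alcam* to *Hilpda* and *Ip6k2* (both r = 0.94). These are the best of many genes over few groups that share their libraries.

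*Ncam2* and *Cntn1* did not pass the filter on low values in any comparison and were fitted only where that filter was dropped. *Ncam2* was at 0 in 30 of the 44 libraries, and its highest value was 0.868 TPM in emSI replicate 2. *Cntn1* was at 0 in 23 libraries and reached 1.26 TPM in exMidgut replicate 3 and 1.21 TPM in emSI replicate 1. With TPM alone it was not possible to say whether zeros at these levels were below detection.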

How the data were processed

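RNA was measured by low-input poly(A) RNA-seq in 44 libraries of 12 groups. Per the methods and labels, the authors used cutadapt 4.1 for trimming, STAR 2.7.9a for alignment to mm10 plus both reporter sequences, and StringTie 2.0.6 for quantification of GENCODE VM23 genes. The deposited values are TPM, FPKM and coverage per gene identifier. Rows of the same identifier were summed. Gene types came from GENCODE vM21 (32235 of 32287 identifiers matched). Each library's TPM sums to 1000000 and holds no depth, and 10382 to 13596 genes per library exceeded 1 TPM.

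Linear models of log2(TPM + 1) were fitted in limma 3.58.1 under R 4.3.3, with moderated variances that followed the mean level (trend option) and two-sided tests adjusted by Benjamini-Hochberg across the genes tested. Genes entered a fit if protein-coding or transgenic, not Y-linked, and over 1 TPM in 4 or more of its libraries (3 or more at E13.5). A call required adjusted p below 0.05 together with a log2 difference beyond 1 in size (interactions, adjusted p only). Fold changes on this scale understate changes at low TPM. Tables and figures were made with Python 3.11.15. Alternative fits took a pseudocount of 0.1, dropped the filter on low values, or used median-ratio rescaling, the authors' FPKM, the deposited coverage scaled by library, a replicate block (statmod 1.5.0), region or organ terms, and leaving out each library. The coverage alternative and the fit without the 2 emMidgut libraries holding *Dppa3* were added after the data were seen. Same-numbered exEndo1 and exEndo2 libraries, which come from single embryos, deviated together (correlations from 0.17 to 0.40).

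The genes, their lists and the tests were chosen with earlier results of these data known. All 10 genes are named, with the called genes of both lists for exGut against emGut and exEndo1 against Epi, and the 2 genes most like each of the 8 members above the filter, of which those for *Dscam* are not reported here. *St8sia2* and *Ank2* were named after their values were seen. Groups are replicates by label, from single embryos at E6.5 and E13.5 and from pools at E9.5.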

Additional observations from a re-analysis of the deposited data

Results flagged for a closer look

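Within groups of 4 libraries, 35 combinations of gene and group with a value above 1 TPM were examined for a library set apart from its group, and chance alone sets apart about 1 in 20. In 3 of them the highest library stood apart. *Ncam1* in emHindgut replicate 2 was 73.9 TPM, while the other replicates lay between 54.4 and 56.2 TPM. *L1cam* in emHindgut replicate 3 was 5.91 TPM, against 1.77 to 2.04 TPM in the others. *Cntn1* in exMidgut replicate 3 was 1.26 TPM, with the other replicates at 0. Groups of 3 libraries at E13.5, emSI among them, were not examined in this way.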

How the results depend on the processing

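Of 29 called differences in the members, 18 were called in every alternative run, and over 632 alternative fits of the 29, 590 kept their call, 42 lost it and 0 changed sign. Of 23 that missed the call with an unadjusted p under 0.05, 30 of 544 fits made it. Among the 39 others, 17 changed sign in some fit, the largest of them at 0.41 in the reported fit. Between exGut and emGut, where 1 member was called, the pseudocount of 0.1, the unfiltered fit and the fit without the 2 emMidgut libraries holding *Dppa3* each called 0, the region covariate called 4, and leaving out a library gave 0 to 2. Between exHindgut and emHindgut (2 called), a pseudocount of 0.1 and no filter each called 1, and leaving out a library gave 1 to 3. Leaving out a library gave 2 to 3 for exMidgut against emMidgut, 4 to 5 for exEndo1 against Epi, 3 to 4 for exGut against YsEndo and for emGut against Epi, 2 to 4 for exGut against exEndo1, 3 to 4 for embryonic E13.5 against E9.5 and 1 to 2 for the extraembryonic cells. With FPKM, exGut against YsEndo called 2 and exGut against exEndo1 called 1. A pseudocount of 0.1 called 5 for embryonic and 2 for extraembryonic E13.5 against E9.5, and coverage called 2 for the latter. With no filter, *Chl1* was the 1 member called in the interaction of origin and region and in the change of origin between stages, where 0 were called. The cause of these changes was not tested.

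In all genes, calls between exGut and emGut rose from 316 to 587 with the region covariate, and calls between exMidgut and emMidgut fell from 521 to 283 without the 2 libraries holding *Dppa3*. Colon against small intestine went from 162 to 81 with no filter. The origin and region interaction went from 13 to 0 with a pseudocount of 0.1, 8 with no filter, 5 without the *Dppa3* libraries and 3 to 19 without a library, the origin and organ interaction from 2 to 0, 14 and, with coverage, 1, and the change of origin from 99 to between 75 and 203 without a library.

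With the replicate block, 2 members and 490 genes were called between exGut and emGut, at an estimated correlation of 0.27. That block joined libraries of the same region and number in a fit with no term for region, so region and replicate cannot be told apart in it. In the fit of exHindgut against emHindgut, with a mean for each group, the estimated correlation was 0.045. *Cntn2* was called there with the block (adjusted p = 0.0472). The block changed no other member call, exEndo1 against exEndo2 included. Apart from exEndo1 and exEndo2, same-numbered libraries had correlations of their deviations from -0.17 to 0.20. The labels do not say whether these libraries come from the same embryos, and the correlations cannot decide it. Depth is unknown, so values listed at 0 have no limit.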
